A study of Oryza sativa with 4 samples.

Results

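Lectin-domain receptor kinases are plant receptors with an outer lectin domain, a membrane-spanning stretch and an inner kinase. The peaks described here were chosen by name among the peaks the authors called: every accessible region whose gene symbol starts with LECRK, or whose gene description names a lectin domain or a lectin S-receptor-like kinase. This gave 207 of the 46114 listed peaks, at 123 genes. Open chromatin of rice leaf blades was profiled with ATAC-seq, an assay that lets the Tn5 transposase insert adapters where DNA is accessible. Of 4 libraries, 2 were from wild-type plants (WT) and 2 from the Oshmgb1 mutant, and all plants were kept for 28 days under the regime labelled HP. The mutant is named for OsHMGB1, a chromatin protein with a high mobility group box that the study links to phosphate balance. The sources used here do not state the allele, how many mutant lines were used, the cultivar, or whether replicates were separate plants, so p-values measure a spread between libraries that may be technical.

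The outer domain divides the family. L-type members carry a legume-lectin-like domain, and G-type members carry a bulb-lectin domain next to an S-locus region, named after the kinase that rejects self pollen in crucifers. Both kinds perceive signals at the cell surface, and many act in defence: in Arabidopsis the L-type receptor DORN1 binds extracellular ATP, and the G-type receptor LORE responds to bacterial fatty acid derivatives. In rice, a cluster of OsLecRK genes at the Bph3 locus protects against the brown planthopper, and the G-type kinase Pi-d2 protects against blast fungus. These genes often stand in tandem copies, and reads from near-identical copies may have been split or shared between them in the authors' counting.

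The descriptions divided the peaks into 89 at 50 L-type genes, 89 at 53 G-type genes and 29 at 20 other genes. A kinase was named in 188 of the 207 descriptions. The other 19 peaks stood mostly at genes with a LECRK symbol whose description is only a locus or clone name. Of the exceptions, 2 peaks were at genes described as jacalin-like lectin proteins, with the symbols CRK41 and RPM1. Among the 188, the gene with the symbol LECRK64 was described as a chitin elicitor receptor kinase. Symbols are borrowed between copies, so 46 peaks at 30 genes share the symbol LECRK41 and 43 peaks at 24 genes share the Arabidopsis name At2g19130. Genes are therefore given below by locus.

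Only listed peaks enter, so a gene without a listed peak is not analysed here, and every member had passed the authors' peak calling. No read count entered the choice beyond that, but the family was selected on earlier results of the same contrast, in which a pair of its peaks passed the test. Reads in listed peaks numbered 7228483 to 10400677 per library, with medians of 100 to 146 reads per member peak and a lowest count of 27. Leaf gene peaks (chlorophyll a-b binding proteins and the Rubisco small subunit) had a median of 61.5 CPM per kb over 27 peaks, against 25.6 over all peaks. Of these 27 peaks, 11 lay lower and 4 higher in Oshmgb1 without overlap between genotypes, beside 21.6% of all peaks in each direction, and 0 passed the test across all peaks. Their part in the results below was not tested. Levels are CPM, read counts scaled by the TMM-adjusted total of reads in listed peaks, and levels of different peaks are compared only per kilobase of peak (CPM per kb). Errors are SD with n = 2 libraries per genotype, or the standard error (SE) of a log2 fold change of Oshmgb1 over WT.

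Lectin kinase peaks had a slightly lower median level than rice peaks at large and lay in exons more often. Their median level was 23.8 CPM per kb, against 25.6 over all peaks, and 84 of the 207 were above that all-peak median. The lowest member had 15.7 and the highest 72.3 CPM per kb, while the most open peak of the genome reached 2021. Exons held 78 of the members (37.7%), against 20.6% of all peaks, and 61 of these 78 were in a first exon. At 43 peaks the exon was the gene's only one. Introns held 18 members (8.70% against 18.0% of all peaks) and promoters 71 (34.3% against 35.1%). The median width was 588 bp (560 bp over all peaks), and 64 members spanned the annotated gene start (30.9% against 29.0%). Related families were similar in level and exon share. Leucine-rich repeat receptor kinases had a median of 23.6 CPM per kb and 35.2% of their peaks in exons. Wall-associated and cysteine-rich receptor kinases had 23.1 CPM per kb and 31.9%. These are descriptions of the peaks that were listed and carry no test.

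The most open member was the promoter of LOC_Os06g38160, with the symbol LECRK82 (chromosome 6, 22597727 to 22598943, spanning the gene start). This gene is a member by its symbol, and its description names no kinase. Among peaks described as kinases the highest level was 50.9 CPM per kb. The LECRK82 promoter is described first. It measured 73.4 and 70.4 CPM per kb in WT replicates 1 and 2, and 68.6 and 77.0 CPM per kb in Oshmgb1 replicates 1 and 2. The genotypes overlapped, and the log2 fold change was 0.016 ± 0.10 (SE), with a 95% interval from -0.19 to 0.22. Next came the promoter of LOC_Os03g56160 (LECRK41), at 51.5, 53.7, 43.2 and 55.3 CPM per kb in the same order, also overlapping. This peak (chromosome 3, 32008004 to 32008651) had a log2 fold change of -0.10 ± 0.14, and a second promoter peak of the gene (32006710 to 32006920, mean level 43.6 CPM per kb) had 0.065 ± 0.23. The other 3 of the 6 most open members were all in a LECRK41 run on chromosome 7, at LOC_Os07g03860, LOC_Os07g03870 and LOC_Os07g03890. Below LECRK82 the order is not firm: the libraries of LOC_Os07g03860 ran from 39.8 to 63.1 CPM per kb and overlapped those of LOC_Os03g56160.

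**Figure D1:**
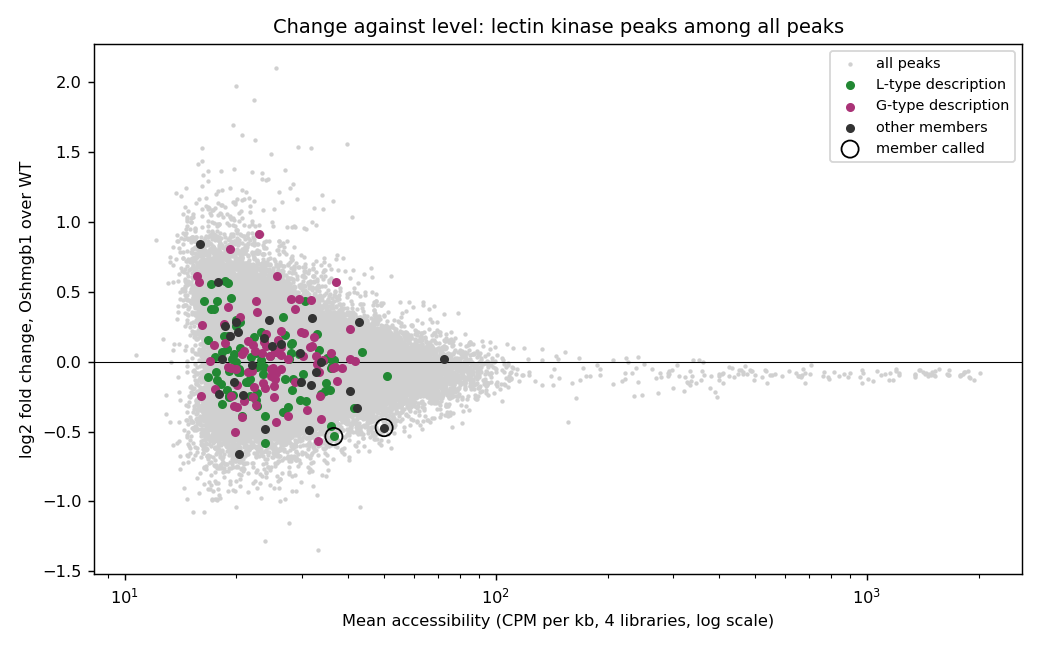
Each point is a peak, with its mean level over 4 libraries in CPM per kb (log scale) against its log2 fold change, Oshmgb1 over WT. Lectin kinase peaks are coloured by description and all peaks are grey. The members lie between 15.7 and 72.3 CPM per kb and mostly within the grey cloud, and the 2 circled members are the LECRK41 promoter peaks that passed the test.

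Relative to all peaks, Oshmgb1 and WT differed little over the family. The scaling holds the bulk of peaks near 0, so a change shared by all peaks would not show in these values. The median log2 fold change of the 207 peaks was 0.0089, against -0.0067 over all peaks, with values from -0.66 to 0.91. It was -0.037 over L-type, 0.020 over G-type and 0.016 over the other peaks. Under edgeR's quasi-likelihood test, with adjustment over all peaks, 2 members were lower (0.966% of the members) and 0 were higher. Over all peaks 0.0824% were lower and 0.321% higher, 0.403% in all. The family was taken up for study with these 2 calls known, so the count is a description and not evidence about the family. At an unadjusted p under 0.05 there were 14 higher and 12 lower members, 12.6% in all, beside 6.94% higher and 5.22% lower, or 12.2%, of all peaks. DESeq2 called 0 members (0.104% of all peaks that it adjusted) and had 8 at an unadjusted p under 0.05 (3.78% of all peaks). The authors' deposited table lists 0 members at an FDR under 0.05 (0.102% of all peaks) and 11 at a p under 0.05 (4.79%).

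The libraries of one genotype lay entirely above those of the other in 101 members, 46 higher and 55 lower in Oshmgb1. Over all peaks this held for 43.2%, with 21.6% in each direction. In 196 of the 207 members (94.7%) the 95% interval excluded a 2-fold difference. This bounds the change at most of these peaks, but does not show that a 2-fold change would pass the adjusted threshold. A fold of 1.88 at LOC_Os11g18980 did not pass it (edgeR adjusted p 0.0665). Standard errors ran from 0.10 to 0.27 with a median of 0.20, and smaller changes were not detectable at the shallower peaks. Replicates of a genotype differed with a median SD of 0.15 on the log2 scale, against 0.16 over all peaks.

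Both peaks that fell in Oshmgb1 were wide promoter peaks of LECRK41 genes on chromosome 7. The first, at LOC_Os07g18230, is described as L-type kinase IV.1 (10807873 to 10809138, minus strand). Its near edge lies 481 bp upstream of the gene start. It measured 55.7 and 54.0 CPM in WT replicates 1 and 2, and 38.1 and 37.6 CPM in Oshmgb1 replicates 1 and 2. Both mutant libraries were below both WT libraries by more than the replicates differed. The fall was from 54.9 ± 1.19 to 37.8 ± 0.382 CPM (SD, n = 2), a log2 fold change of -0.54 ± 0.12 (SE) with an edgeR adjusted p of 0.0144. This call was lost with DESeq2 (adjusted p 0.265) and without WT replicate 1 (0.0587) or Oshmgb1 replicate 1 or 2 (0.178 and 0.260), at log2 fold changes from -0.54 to -0.51. The authors' deposited table gives it an FDR of 0.0583.

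The second was the promoter of LOC_Os07g03860, described as lectin-domain receptor kinase A4.3 after a goatgrass protein (1612134 to 1613198, minus strand), which spans the gene start. It measured 56.4 and 67.2 CPM in WT and 42.4 and 47.0 CPM in Oshmgb1, again without overlap. WT replicate 2 was the highest library and stood further from WT replicate 1 than the mutant libraries from each other. The fall was from 61.8 ± 7.65 to 44.7 ± 3.26 CPM (SD, n = 2), or -0.47 ± 0.12 on the log2 scale (edgeR adjusted p 0.0344). Without WT replicate 2 the log2 fold change was -0.34 and the adjusted p 0.221. The call was also lost with DESeq2 (0.946), with the intensity-dependent offset (0.0864), with the replicate number as a block (0.0542) and without Oshmgb1 replicate 1 or 2 (0.419 and 0.179), and its FDR in the authors' deposited table is 0.252.

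Other LECRK41 promoters of this width lay on the same side. The symbol has 14 promoter peaks at 13 genes. The 4 of at least 1000 bp, among them the 2 called peaks, were grouped after their values were seen. All 4 were lower in Oshmgb1 without overlap, with a median log2 fold change of -0.40 that the 2 called peaks help to set. Besides the peaks above these were LOC_Os07g03890, at 55.7 and 54.5 CPM in WT and 42.2 and 45.6 CPM in Oshmgb1 (-0.33 ± 0.12, adjusted p 0.215), and LOC_Os07g38800, at 44.5 and 41.4 against 35.2 and 38.0 CPM (-0.23 ± 0.13, adjusted p 0.478). The 10 narrower LECRK41 promoter peaks had a median of 0.0096, with values from -0.21 to 0.30, and 1 of them lay higher without overlap. Of the 7 member promoters of at least 1000 bp, the 3 with other symbols had log2 fold changes of -0.15 (SD25 at LOC_Os06g13320), 0.016 (LECRK82) and 0.060 (LECRK3 at LOC_Os08g13420). Over all 1935 promoter peaks of that width the median was -0.024, and 484 lay lower and 334 higher without overlap. How far these copies share sequence and reads was not tested.

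**Figure D2:**
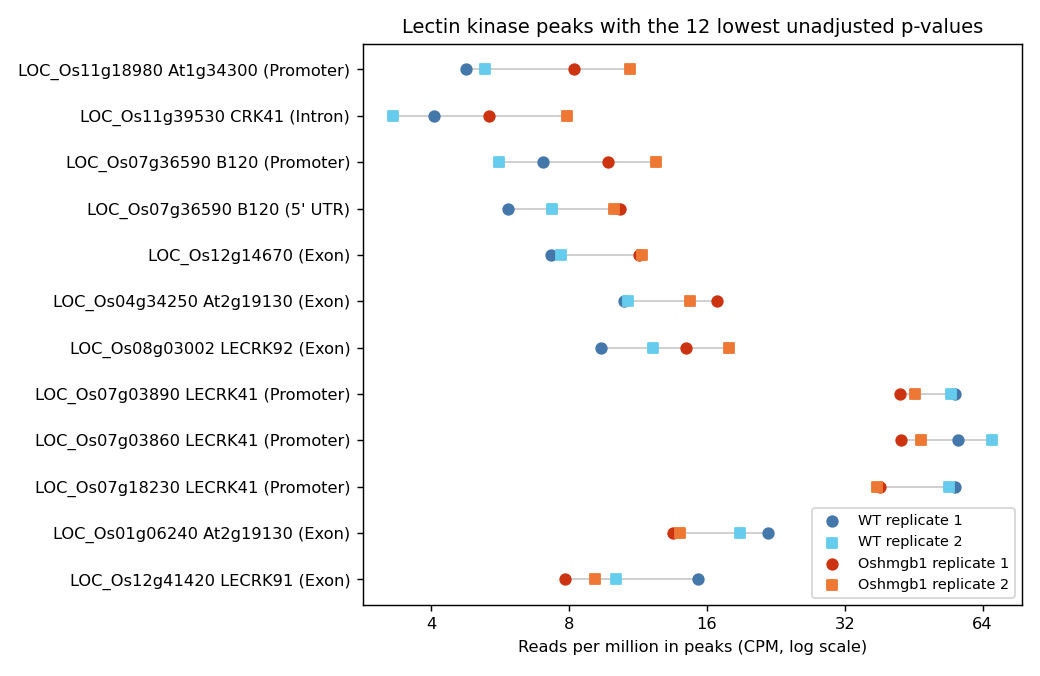
Scaled reads in each of the 4 libraries (CPM, log scale) are shown for the 12 lectin kinase peaks with the lowest unadjusted p-values, ordered by log2 fold change. Blue points are WT, red and orange points Oshmgb1, circles replicate 1 and squares replicate 2. The 3 LECRK41 promoters stand near 38 to 67 CPM with WT above Oshmgb1, and the 7 peaks with more reads in Oshmgb1 reach at most 17.8 CPM.

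Along the largest tandem run, neighbouring genes had values of both signs. Member genes were joined into a run where the gap between them was under 50 kb, and 29 of the 123 genes fell into 5 runs of at least 3 genes. The longest, with 14 LECRK41 and LECRK42 genes and 23 peaks, lies on chromosome 7 from 1575322 to 1745749. Its log2 fold changes ran from -0.47 to 0.56, with 11 peaks above 0 and 12 below and a median of -0.045. Beside the promoter of LOC_Os07g03860 that fell, the first exon of LOC_Os07g03870 held one peak with 37.2 and 40.2 CPM per kb in WT against 47.3 and 46.8 in Oshmgb1 (0.28 ± 0.18), and another with 47.3 and 39.8 against 36.6 and 38.5 (-0.21 ± 0.15). Neither passed the test, with adjusted p of 0.553 and 0.594. The highest value of the run was in the exon of LOC_Os07g03970 (0.56 ± 0.24, adjusted p 0.311).

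**Figure D3:**
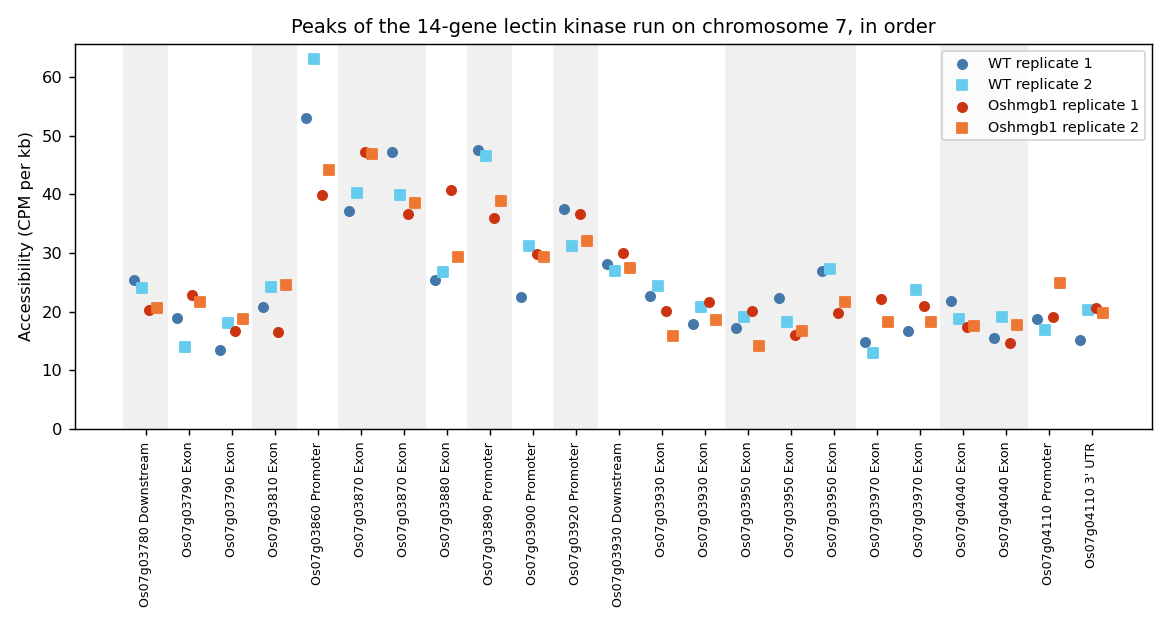
Accessibility in CPM per kb is shown for the 23 peaks of the chromosome 7 run in chromosome order, with 1 point per library and grey bands setting off groups of peaks by gene. At the promoters of LOC_Os07g03860 and LOC_Os07g03890 both blue WT points stand well above both mutant points, while most other peaks are less open and the order of their libraries varies.

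A second LECRK41 pair stands on chromosome 7 at LOC_Os07g18230 and LOC_Os07g18240. The exon of LOC_Os07g18230, next to the promoter peak that fell, had 18.5 and 20.5 CPM in WT and 26.7 and 20.8 CPM in Oshmgb1 (log2 fold change 0.29 ± 0.17, adjusted p 0.518). Its direction was thus opposite to that of the promoter, though the difference between these peaks was not tested. The first exon of LOC_Os07g18240 had 15.6 and 15.4 CPM in WT against 11.8 and 10.1 CPM in Oshmgb1 (-0.49 ± 0.21, adjusted p 0.305), without overlap.

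Among members with more reads in Oshmgb1, the largest values were at thinly covered peaks, and none passed the test. The promoter peak of LOC_Os11g18980, a G-type kinase named At1g34300 (chromosome 11, 10814442 to 10814757, 415 bp upstream), had 34 and 43 reads in WT and 86 and 93 in Oshmgb1. This was 5.01 ± 0.343 against 9.53 ± 1.86 CPM (SD, n = 2), a log2 fold change of 0.91 ± 0.25 with an adjusted p of 0.0665. The intron peak of LOC_Os11g39530, the jacalin-like entry CRK41, had 29 and 27 reads against 56 and 68 (0.84 ± 0.27, adjusted p 0.141). Neither overlapped between genotypes, and both rest on few reads. The value at LOC_Os11g39530 was 0.54 without Oshmgb1 replicate 2.

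LOC_Os07g36590, a G-type kinase with the symbol B120, showed the widest spread within a gene. Its promoter peak (chromosome 7, 21883787 to 21884239) had 7.01 and 5.62 CPM in WT and 9.74 and 12.4 CPM in Oshmgb1 (0.80 ± 0.24, adjusted p 0.103), and its 5′ UTR peak had 5.89 and 7.33 against 10.3 and 10.0 CPM (0.61 ± 0.24, adjusted p 0.249). Exon peaks further inside the gene had -0.15 ± 0.22 and -0.18 ± 0.20. Both peaks near the gene start were higher in both mutant libraries. The values in the body were smaller than their SE, and none of the 4 peaks passed the test. Whether start and body differ was not tested.

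Among members with at least the median level in CPM and separate genotypes, only the 2 LECRK41 promoters above passed the test, and the others named here did not. On the lower side the exon peak of LOC_Os01g06240 (At2g19130) had 20.3 ± 1.98 CPM in WT and 13.7 ± 0.377 CPM in Oshmgb1 (SD, n = 2), without overlap (-0.57 ± 0.19, adjusted p 0.168). The 5′ UTR peak of LOC_Os04g44910 (LECRK41) had -0.46 ± 0.20 and the intron peak of LOC_Os04g22120 (LECRK91) -0.33 ± 0.15. On the higher side were an exon peak of LOC_Os09g09510 (LECRK41, 0.43 ± 0.18), an intron peak of LOC_Os01g40499 (At2g19130, 0.39 ± 0.20), an exon peak of LOC_Os08g08140 (B120, 0.38 ± 0.16), a downstream peak of LOC_Os09g14660 (LECRK42, 0.31 ± 0.15) and an exon peak of LOC_Os04g12540 (LECRK1, 0.30 ± 0.19). The adjusted p of these last 7 ran from 0.282 to 0.544. Several rest on 1 library: LOC_Os01g40499 had 0.16 without Oshmgb1 replicate 2, 0.25 without WT replicate 2 and 0.60 without Oshmgb1 replicate 1. LOC_Os04g22120 had -0.19 without WT replicate 1, and without Oshmgb1 replicate 1 LOC_Os08g08140 had 0.24 and LOC_Os09g14660 0.20.

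Of 58 lectin kinase genes with more than 1 member peak, 36 had log2 fold changes on both sides of 0. This held for 21 of 37 genes with 2 peaks (56.8%, against 47.6% of all genes with 2 peaks), 11 of 16 with 3 (68.8% against 70.8%) and 4 of 5 with 4 (80.0% against 82.7%). No test was made of these shares. The median distance between the highest and lowest peak of a gene was 0.31. Of the 21 genes with 3 or 4 peaks, 1 had all above 0 and 5 had all below. The one above was LOC_Os07g36780 (At2g19130, 4 peaks, 0.11 to 0.44), and the gene with the lowest mean was LOC_Os01g57490 (B120), at -0.41, -0.25 and -0.19 in promoter, exon and intron. The other genes with 4 peaks ranged from -0.35 to 0.23 (LOC_Os04g01310), from -0.18 to 0.80 (LOC_Os07g36590), from -0.12 to 0.072 (LOC_Os08g24770) and from -0.22 to 0.10 (LOC_Os12g41490). When counts were summed over all peaks of a gene, edgeR called 1 of the 123 genes lower, LOC_Os07g03860 (-0.47 ± 0.11, adjusted p 0.0183), which has a single peak, and 0 higher. Over all genes 0.0811% were lower and 0.464% higher, 0.546% in all, and DESeq2 called 0 members (adjusted p 0.638 for LOC_Os07g03860). LOC_Os07g18230 was not called as a sum (-0.27 ± 0.10, adjusted p 0.234).

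**Figure D4:**
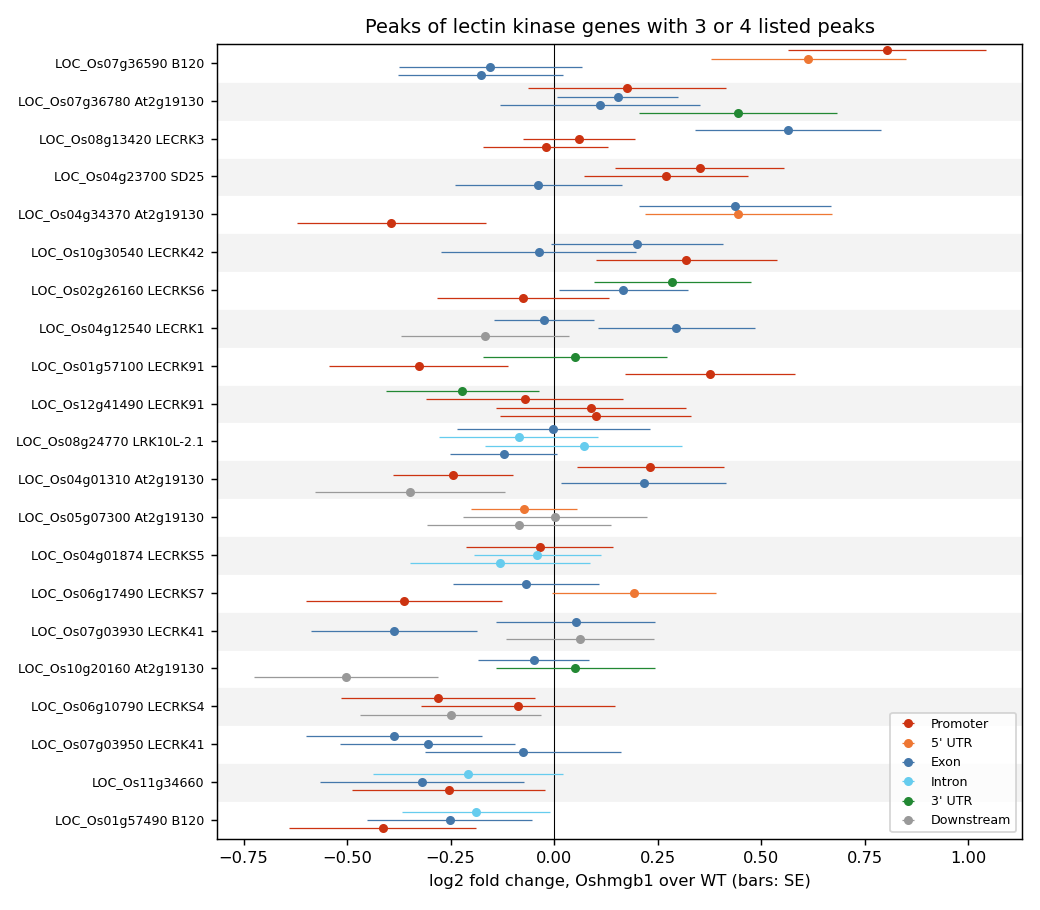
Log2 fold changes (Oshmgb1 over WT) with SE bars are shown for every peak of the 21 lectin kinase genes with 3 or 4 listed peaks, coloured by annotation class, with 1 row per gene ordered by mean. Most rows cross 0, and LOC_Os07g36590 at the top spans -0.18 to 0.80.

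Peaks at genes with the names of rice resistance kinases showed no called difference. With 0.403% of all peaks called, these peaks are too few for this to be read as a result. The genes with the symbols LECRK1, LECRK2 and LECRK4 stand together on chromosome 4 (LOC_Os04g12540, LOC_Os04g12560 and LOC_Os04g12600, 6939046 to 6979249), and had 7 peaks with log2 fold changes from -0.31 to 0.30. A 2206 bp exon peak of LOC_Os04g12540 (LECRK1) measured 46.3 and 51.9 CPM in WT and 51.0 and 45.6 CPM in Oshmgb1 (-0.024 ± 0.12). An exon peak of LOC_Os04g12600 (LECRK4) measured 50.1 and 48.4 CPM in WT and 43.3 and 48.8 CPM in Oshmgb1 (-0.10 ± 0.12). The genotypes overlapped at both. The annotation assigns none of the 7 peaks to a promoter, but both of these exon peaks span the gene start and reach upstream of it. No LECRK3 peak was listed in the chromosome 4 group, and the member genes with that symbol stand on chromosomes 3 and 8. With all copies that carry the symbols LECRK1 to LECRK4 there were 14 peaks at 7 genes, with a median of -0.022 and 0 called. The highest was an exon peak of LOC_Os08g13420 (LECRK3), at 8.42 and 8.19 CPM in WT and 13.1 and 11.4 CPM in Oshmgb1 (0.57 ± 0.22, adjusted p 0.265), while both promoter peaks of that gene had -0.020 ± 0.15 and 0.060 ± 0.14. Pi-d2 was taken as LOC_Os06g29810 (listed as SD25) from background knowledge and named after its values were seen. Its exon peak measured 75.3 and 75.8 CPM in WT and 79.6 and 79.1 CPM in Oshmgb1 (0.071 ± 0.10, adjusted p 0.833), and its promoter peak had -0.14 ± 0.20.

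Other symbols of the family had no call, but with 0.403% of all peaks called each has too few peaks for this to be read as a result. Differences between symbols were not tested. LECRK91, named for the Arabidopsis L-type kinase IX.1, had 18 peaks at 10 genes with a median of -0.11, of which 9 lay lower and 3 higher without overlap, beside 26.6% lower and 22.2% higher over the family and 21.6% each way over all peaks. The lowest values were exon peaks at LOC_Os04g06070 (described without naming a kinase, -0.66 ± 0.26, adjusted p 0.256) and LOC_Os12g41420 (-0.58 ± 0.23, adjusted p 0.253). The latter was called only without WT replicate 2 (-0.86, adjusted p 0.0486). LECRKS7 had 6 peaks with a median of -0.15, while the 43 At2g19130 peaks had 0.010 and the 11 SD25 peaks -0.038. From LOC_Os04g34250 to LOC_Os04g34420 on chromosome 4, 6 of 7 At2g19130 peaks were above 0, with a median of 0.43, and 4 lay higher and 1 lower without overlap, beside 21.6% each way over all peaks. This run was picked out after its values were seen. The largest of these, in the exon of LOC_Os04g34250, had 10.5 and 10.8 CPM in WT and 16.8 and 14.7 CPM in Oshmgb1 (0.57 ± 0.21, adjusted p 0.224).

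By position, the medians of member promoters and exons were close to those of all promoters and exons. The median log2 fold change was -0.035 over 71 promoter peaks (-0.024 over all promoter peaks) and 0.026 over 78 exon peaks (0.025 over all exon peaks). Of the promoter members 24 (33.8%) lay lower and 11 (15.5%) higher without overlap, against 23.3% and 19.6% of all promoter peaks. The 2 lower calls are among 0.124% of all promoter peaks that were lower. The 9 peaks in 5′ UTRs had a median of 0.041 (-0.049 over all 5′ UTR peaks), and the 14 in 3′ UTRs 0.069 (-0.021).

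Other receptor and signalling lists had medians from -0.12 to 0.014 and 0 to 4 calls each. The leucine-rich repeat receptor kinases, the largest receptor family of plants, had 341 peaks with a median of 0.0090. They had 2 higher and 2 lower calls, each 0.587% of these peaks, against 0.321% higher and 0.0824% lower over all peaks. Wall-associated and cysteine-rich receptor kinases had 191 peaks with a median of -0.053 and 0 calls. There were also 0 calls among 17 peaks of SERK co-receptors (median -0.082), 11 of PBL and receptor-like cytoplasmic kinases, which relay receptor signals (-0.12), 78 of MAP kinases (-0.032), 16 of respiratory burst oxidases (-0.080) and 8 of soluble lectins (0.014). At an unadjusted edgeR p under 0.05, where 12.2% of all peaks stood, there were 62 peaks of leucine-rich repeat kinases (18.2%) and 26 of wall-associated and cysteine-rich kinases (13.6%). The last 5 lists had 2, 4, 11, 2 and 1 such peaks in the order given, of which the 4 of cytoplasmic kinases are 36.4% of only 11 peaks. With 0.403% of all peaks called, lists of 8 to 191 peaks are too small for 0 calls to be read as a result. Whether the lectin kinases differ from any list above was not tested.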

How the data were processed

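ATAC-seq of rice leaf blades was represented by 2 WT and 2 Oshmgb1 libraries. Per the submitters' processing notes, the tools were ChIPseeker 1.16.1, MACS2 2.1.2, Bowtie2 2.4.4, fastp 0.23.0 and bcl2fastq 2.19, named without their roles. The sources used here do not state settings, the genome build, the Tn5 shift, or how duplicates and reads matching several places were handled. The authors deposited whole-number read counts per merged peak and library, RPKM, group means of RPKM, a log2 fold change of those means, and a p-value with an FDR from an unnamed test. The deposited counts were tested. The deposited RPKM gave the library totals of one alternative, and the deposited log2 fold change and FDR were an alternative set of calls. No column of another sample was present (0).

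Counts of all 46114 peaks were fitted with edgeR 4.0.16 under R 4.3.3 (scaling by TMM, default filter, quasi-likelihood test of Oshmgb1 against WT, no covariate), with Benjamini-Hochberg adjustment over all peaks and a threshold of 0.05. Counts summed per gene were fitted in the same way over 27130 genes. Standard errors were derived by dividing each log2 fold change by the root of its F value; intervals are 95%. The main test did not pair libraries by replicate number. The correlation of replicate 1 minus 2 between the genotypes was -0.036 over all peaks. This gives no sign of a shared replicate pattern but cannot show how the libraries were prepared. DESeq2 1.42.0 was an alternative, as were 4 other scalings (limma 3.58.1 for the intensity-dependent offset), a minimum mean CPM of 5, a replicate block and leaving out each library. On simulated counts over 46114 peaks the test recovered 28% of 50 peaks changed 1.5-fold and 82% of 50 changed 2-fold, with 7 false calls. Those counts were drawn with the trended dispersion only. The changed peaks were sampled from all peaks, so recovery among the members was not measured. Figures were drawn with matplotlib 3.10.9.

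The family, the lists and the tests were chosen with earlier results of these data known. The text names members that passed the threshold, the 5 largest changes in each direction among members of at least median CPM without overlap, the 6 highest levels per length, genes with at least 4 peaks, the symbols LECRK1 to LECRK4, and the 6 lowest p-values. Other names were chosen after their values were seen.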

Additional observations from a re-analysis of the deposited data

How the results depend on the processing

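The 2 lower calls remained 2 with DESeq2's size factors, library totals alone, the library totals behind the RPKM, a minimum mean CPM of 5, no filter, and members described as kinases. There was 1 with the intensity-dependent offset and 1 with the replicate block, and 0 with DESeq2 and in the authors' deposited table, the cause of which was not tested. With a library left out, 0 to 2 members were lower and 0 higher. Summed per gene, 0 genes were lower with DESeq2, 1 was higher with library totals alone (LOC_Os11g18980), and with a library left out 0 to 2 were higher and 0 to 1 lower. The family median was 0.029 with library totals alone, -0.034 with those behind the RPKM, -0.0094 with the intensity-dependent offset and -0.035 in the authors' deposited table, and ran from -0.022 to 0.00098 with a library left out. The family median therefore has no firm sign. All peaks moved with it under some scalings, with a median of 0.013 with library totals alone and -0.050 with those behind the RPKM. With the intensity-dependent offset the median of all peaks was -0.0011, and with a library left out it ran from -0.0034 to -0.0001. In those settings all peaks rose from -0.0067 in the main test, while the family median fell. The promoter median was -0.079 with library totals behind the RPKM and -0.072 in the authors' deposited table, and -0.071 to -0.037 with a library left out. From 148 to 160 members were without overlap when 3 libraries were compared, which is easier to meet. The share of all peaks under that comparison is not given here, so these counts are not read as a result about the members.

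Single peaks were recomputed for the 31 named. Among these, signs changed at peaks that had not passed the test, mostly with values near 0. LECRK82 had -0.028 with library totals behind the RPKM and -0.028 in the authors' deposited table, and the intensity-dependent offset gave 0.023 at the exon peak of LOC_Os04g12540 and 0.0094 at a promoter peak of LOC_Os08g13420. With a library left out, values ran from -0.068 to 0.10 at LECRK82, -0.029 to 0.17 and -0.29 to 0.075 at LOC_Os03g56160, -0.0080 to 0.25 at LOC_Os03g61310, -0.40 to 0.14 and -0.10 to 0.066 at LOC_Os04g12540, -0.12 to 0.34 and -0.32 to 0.16 at LOC_Os04g12560, and -0.087 to 0.044 at LOC_Os08g13420. The replicate block gave a family median of 0.0083 and changed no other call among members. Leaving out WT replicate 2 raised the calls over all peaks to 356 higher and 174 lower. A lone library in an arm is assumed to vary like the others. Reads that match several copies limit all values of the tandem genes.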
